A study of Mus musculus with 10 samples.

Results

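The 8 genes described here draw neutrophils to a site or mark their presence, and they were followed through 5 single-cell RNA libraries of SW1 mouse melanoma: the chemokines Cxcl1, Cxcl2 and Cxcl3, their receptor Cxcr2, the calcium-binding proteins S100a8 and S100a9, the G-CSF receptor Csf3r and the gelatinase Mmp9. They are 8 of the 32285 genes in the deposited matrices, chosen by name, with earlier results of these data known. All 8 had UMIs (unique molecular identifiers, 1 per captured RNA molecule) in every library. SW1 tumors were grown under the skin of the right flank of female C3H/HeJ mice of 4 to 6 weeks, and the tumors were pooled within each arm, so that each condition is 1 library. The groups were control day 0, taken after tumor growth and before treatment, and, for day 7 and day 21 each, a control and an L-fuc library. Where values are given in library order, the order is control day 0, control day 7 and its L-fuc partner, then control day 21 and its L-fuc partner. The controls drank plain water, and the L-fuc mice drank water with the sugar L-fucose. The labels give the dose as 100 mM in one place and 100 nM in another, and give 5 or 6 mice per arm and 3 for day 0. C3H/HeJ mice carry a non-functional Tlr4, a receptor for which the S100a8 and S100a9 proteins are known ligands, and all 5 groups share it. With 1 library per condition no test between conditions was possible, and intervals cover counting error only.

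Cxcl1, Cxcl2 and Cxcl3 are small secreted proteins that bind CXCR2 on neutrophils and guide them along a gradient into inflamed tissue. They are induced by NF-κB signalling, and in tumors macrophages, stroma and the tumor cells themselves can make them. S100a8 and S100a9 pair as calprotectin, the most abundant cytosolic protein of neutrophils, while Csf3r transmits the G-CSF signal that drives granulocyte production and Mmp9 is stored in neutrophil granules. In many mouse tumors, neutrophils recruited by this axis are studied as suppressors of T cells.

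Barcodes with no fewer than 200 genes and up to 10% of their UMIs from mitochondrial genes were kept: 1660 at control day 0, 19298 at control day 7, 12265 at L-fuc day 7, 1981 at control day 21 and 1236 at L-fuc day 21. The kept UMIs of a library lay between 14377573 and 116085791, and the median per kept barcode between 2295 and 4922.5. Each barcode was placed by its own counts into 4 gates that can overlap. The S100a8/S100a9-high gate takes 10 or more UMIs of that pair, the macrophage gate 10 or more of the complement genes C1qa, C1qb and C1qc, the T cell gate 2 or more of Cd3e, Cd3d and Cd3g, and the tumor gate 1 or more of the neural crest factor Sox10 with no Ptprc, the CD45 gene. Over the 5 libraries these held 176, 5967, 3979 and 13344 of 36440 barcodes. The tissue had been sorted for CD45, so the large tumor gate goes against the sort described in the labels. The melanocyte factor Mitf stood at 28.3 to 45.7 CPM there and at 24.5 to 40.3 in macrophages, so it did not set the gate apart, and its name rests on the Sox10 rule. CPM is the number of UMIs of a gene per 1000000 UMIs of the library or gate. Cell barcodes shared between a pair of libraries numbered 3 to 433 over 10 pairs, and none was S100a8/S100a9-high in both. Genes of red blood cells made up 1951 CPM at control day 7 and 7094 at L-fuc day 7, against 0.348 at control day 0.

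The 3 chemokine genes lie in a cluster on chromosome 5 and share a promoter layout, shown here because their levels are compared below. In the mouse genome build GRCm38 with its GENCODE annotation, all 3 are on the plus strand. Cxcl3 spans chr5:90786103-90789600, Cxcl1 spans chr5:90891241-90893115 and Cxcl2 spans chr5:90903871-90905938. Thus 101640 bases separate Cxcl3 from Cxcl1, and 10755 separate Cxcl1 from Cxcl2. The 80 bases from 100 to 21 before the RefSeq start of each gene (GRCm38.p6, plus strand) are printed with 2 motifs in capitals, GGANNTTCC, the core of an NF-κB type site, and ATAAAAGG, a TATA box type sequence:
Cxcl1, chr5:90891145-90891224: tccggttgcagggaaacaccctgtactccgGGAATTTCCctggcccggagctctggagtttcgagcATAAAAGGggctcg
Cxcl2, chr5:90903799-90903878: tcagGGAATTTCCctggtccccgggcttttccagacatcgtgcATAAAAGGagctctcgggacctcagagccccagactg
Cxcl3, chr5:90786001-90786080: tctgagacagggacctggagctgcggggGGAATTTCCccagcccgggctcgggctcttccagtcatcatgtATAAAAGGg

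The NF-κB type motif begins 70, 96 and 72 bases before the start of Cxcl1, Cxcl2 and Cxcl3, and the TATA type motif 34, 57 and 29 bases before it. These distances count from the RefSeq starts. For Cxcl1 and Cxcl2 those lie inside the GENCODE spans given above, and the last bases of the Cxcl2 stretch overlap its span. On either strand, GGANNTTCC occurs in 4.26% and ATAAAAGG in 1.76% of 32851 RefSeq promoters of 300 bases. Within the 80-base window the shares are 1.07% and 0.749%, and 5 promoters hold both: the 3 chemokines, Gm34000 and Septin4. The motifs were chosen after these 3 promoters had been read, so the shares describe the sequences and test nothing. Among the other members, Csf3r (chr4:126024550-126044440) had 1 GGANNTTCC starting 129 bases before its start. Cxcr2 (chr1:74153989-74161246), S100a8 (chr3:90668978-90670035) and S100a9 (chr3:90692632-90695721, minus strand) had neither motif in their window of 300 bases, and for Mmp9 (chr2:164940780-164955850) no promoter was read. S100a8 and S100a9 are neighbours, with 22596 bases between them.

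Cxcl2 was by far the most counted member, with 109491 UMIs in the 5 libraries against 18262 for Cxcl1 and 832 for Cxcl3. The receptor side was sparse, with 332 UMIs of Cxcr2, 302 of Mmp9 and 2179 of Csf3r, while S100a8 had 9258 and S100a9 had 12169. UMIs count molecules and were not divided by gene length. Where Cxcl1 and Cxcl2 are set against each other below, the values are UMI ratios of these genes, read across gates and libraries and not as absolute levels.

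**Figure D1:**
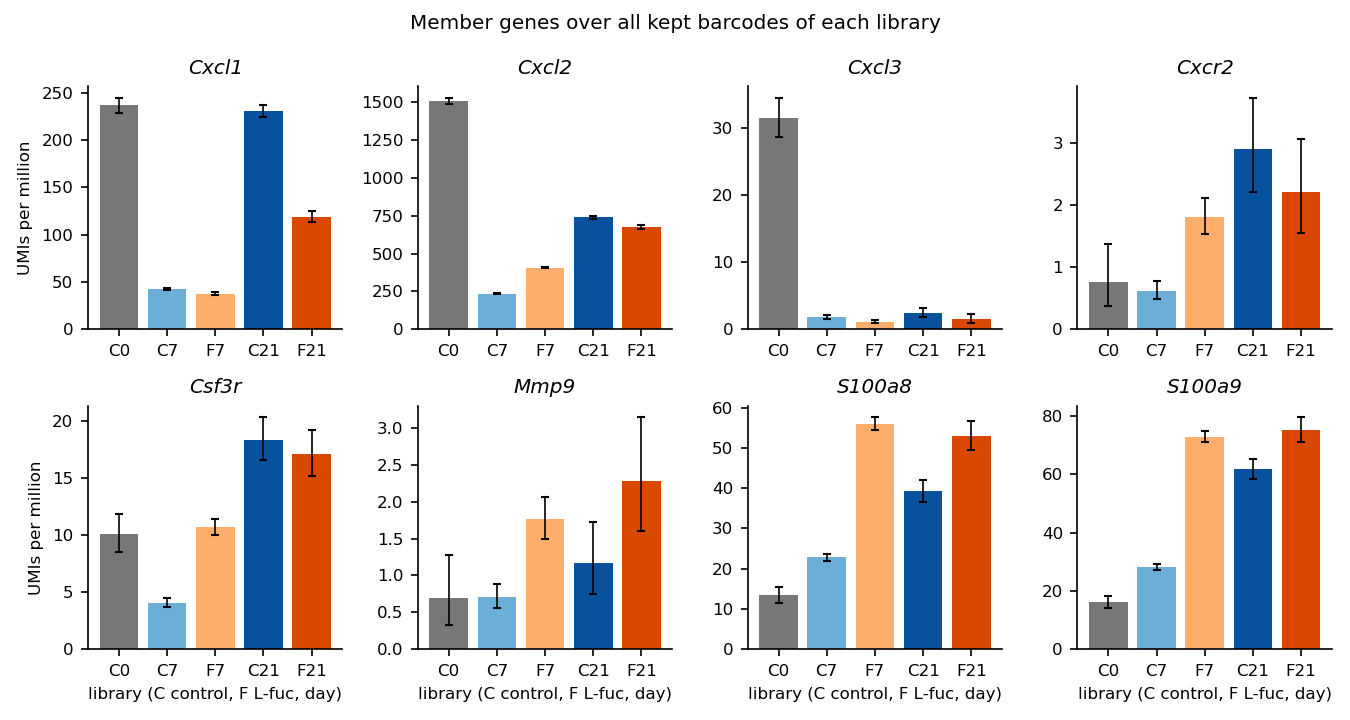
CPM of each member (vertical axis, its own range per panel) over all kept barcodes of the 5 libraries (horizontal axis: C control, F L-fuc, with the day); bars are the value and whiskers the exact 95% Poisson interval. Cxcl1, Cxcl2 and Cxcl3 stood highest at control day 0, at 237, 1510 and 31.5, while S100a8 and S100a9 stood lowest there, at 13.4 and 16.1.

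Over all kept barcodes, the chemokines and the S100 pair followed different orders. Cxcl2 stood at 1510 CPM at control day 0, 235 at control day 7, 406 at L-fuc day 7, 739 at control day 21 and 673 at L-fuc day 21. Cxcl1 stood at 237, 42.6, 37.7, 231 and 119 in the same order, so that both were lowest at day 7. S100a8 stood at 13.4, 22.8, 56.0, 39.2 and 53.1, and S100a9 at 16.1, 28.1, 73.0, 61.7 and 75.3. Their intervals at L-fuc day 7 and L-fuc day 21 overlapped, and those at the other libraries did not overlap with each other. From control day 0 to control day 7, Cxcl1 was lower by a log2 ratio of -2.47, Cxcl2 by -2.69 and Cxcl3 by -4.10. The tumor gate took 16.3% of kept barcodes at control day 0 and 47.3% at control day 7, and the macrophage gate 30.8% and 9.22%. In such whole-library sums, fewer cells of a type and less RNA per cell cannot be told apart.

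Where the UMIs lay differed from member to member. Barcodes in the macrophage gate and no other held 52.9% of Cxcl1, 50.1% of Cxcl2 and 50.5% of Csf3r. Barcodes in the S100a8/S100a9-high gate and no other held 25.3% of Cxcr2 and 22.2% of Mmp9, but 4.19% of Cxcl2. A large part of Mmp9 (42.7%), Cxcr2 (34.9%) and Cxcl3 (45.9%) lay in barcodes of no gate. The S100 pair was split between S100a8/S100a9-high barcodes in no other gate (40.1% of S100a8, 49.6% of S100a9) and barcodes in more than 1 gate (56.1% and 45.6%), a split that the rule itself shapes.

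**Figure D2:**
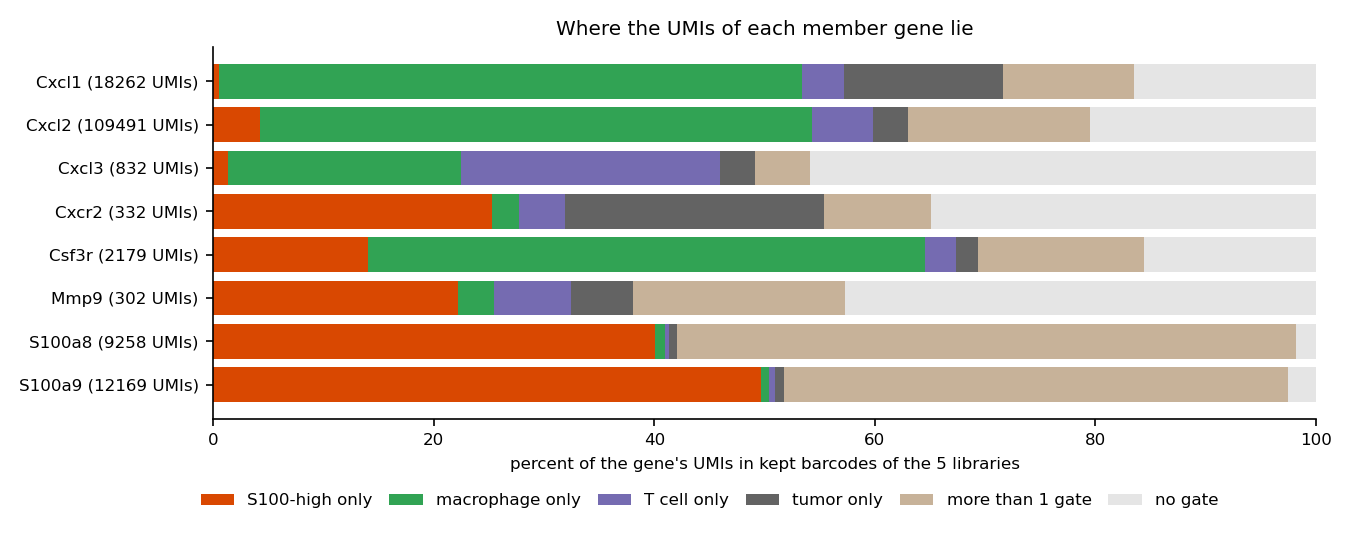
Percent of each member's UMIs (horizontal axis) over the kept barcodes of the 5 libraries, divided by the gate in which the barcode lies; totals stand beside the gene names. Macrophage-only barcodes take 52.9% of Cxcl1, 50.1% of Cxcl2 and 50.5% of Csf3r, and tumor-only barcodes 14.5% of Cxcl1 and 23.5% of Cxcr2.

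Among the ligands, Cxcl2 was highest per UMI in the S100a8/S100a9-high gate, not in the macrophages. In that gate it stood at 7162 CPM at control day 0, 3075 at control day 7, 9345 at L-fuc day 7, 13571 at control day 21 and 14755 at L-fuc day 21. In the macrophage gate it stood at 2043, 1333, 1198, 1397 and 1466. The S100a8/S100a9-high value was the higher in 5 of 5 libraries, and the ranges over libraries did not overlap. Macrophage over S100a8/S100a9-high, the mean log2 ratio was -2.52 ± 0.957 (SD, n = 5 libraries; exact two-sided sign-flip permutation test, p = 0.0625, adjusted p = 0.0833 over 8 comparisons). With 5 libraries the p cannot go under 0.0625, so no such comparison could pass 0.05. For the sum of the 3 ligands the mean was -2.32. Without the 5 barcodes that held most S100 UMIs in each library it was -1.51, with libraries from -3.48 to 3.50 (exact permutation test, p = 0.375). That step left out 5 of 6 S100a8/S100a9-high barcodes at control day 0 and 5 of 8 at L-fuc day 21.

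Cxcl2 was detected in 75.0% to 90.5% of S100a8/S100a9-high barcodes and in 20.6% to 42.6% of macrophages. It was found in 1.48% to 13.2% of tumor-gate barcodes, which had larger median UMI counts (7332 to 22897) than macrophages (3693 to 7077) in every library. The tumor-gate level, given for comparison, was 0.872 to 46.0 CPM. That gate shares barcodes with the macrophage gate, and the level of free RNA was not estimated. In the T cell gate, Cxcl2 stood at 479 to 1401. T cell barcodes in no other gate had 935, 347, 270, 21.9 and 23.4 in library order, so most of the T cell signal at day 21 lay in barcodes that were also in another gate.

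Within macrophages, Cxcl2 came from a minority of cells. The tenth of macrophage barcodes with most Cxcl2 held 82.4%, 80.9%, 93.7%, 95% and 85.1% of the Cxcl2 UMIs in library order. Barcodes with 10 or more Cxcl2 UMIs made up 21.3%, 17.2%, 11.3%, 12.2% and 19.8% of macrophages. Cxcl1 lay in the same barcodes more often than in others: Cxcl2 was detected in 77.0% to 94.1% of macrophages with Cxcl1 and in 13.9% to 33.6% of those without. Both shares grow with the depth of a barcode, and that part was not tested.

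Cxcl1 did not share the Cxcl2 order of gates. In macrophages it stood at 462, 260, 89.1, 345 and 218 CPM in library order. In the S100a8/S100a9-high gate it stood at 254, 106, 135, 389 and 0, the last with a floor of 118 for 3 counts. Macrophages were higher in 3 of 5 libraries, with a mean log2 ratio of 0.74 ± 1.23 (SD, n = 5; exact permutation test, p = 0.3125, adjusted p = 0.3125). In the S100a8/S100a9-high gate Cxcl1 was seen in 3, 6, 7, 3 and 0 barcodes, and each of those also held Cxcl2.

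Cxcl3 was highest at control day 0, though not confined to it. It had 453 UMIs in 40 barcodes at control day 0 and 213, 92, 49 and 25 UMIs in 56, 24, 9 and 6 barcodes in the later libraries. At control day 0 the 3 richest barcodes held 63.1% of its UMIs. Of the 40 barcodes, 92.5% also held Cxcl2 and 95% held Arg1, which was found in 17.2% of the barcodes without Cxcl3. Arg1 encodes an arginase of alternatively activated macrophages, and the paper lists it as a monocyte marker. In the later libraries 44.6%, 33.3%, 11.1% and 66.7% of barcodes with Cxcl3 held Arg1, against 3.65% to 7.15% of the others. Arg1 was picked after its values had been seen. Macrophage over S100a8/S100a9-high, Cxcl3 had a mean log2 ratio of -2.47 ± 1.93 (SD, n = 5; exact permutation test, p = 0.125, adjusted p = 0.143), from 0 to 8 UMIs per library in the latter gate. That gate held 12 Cxcl3 UMIs in all, with none at control day 0 or L-fuc day 21. The lowest ratio, -4.93 at L-fuc day 21, came from the 1 UMI added to each sum. The mean and its p thus depend on that added UMI, and no direction is read from them.

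**Figure D3:**
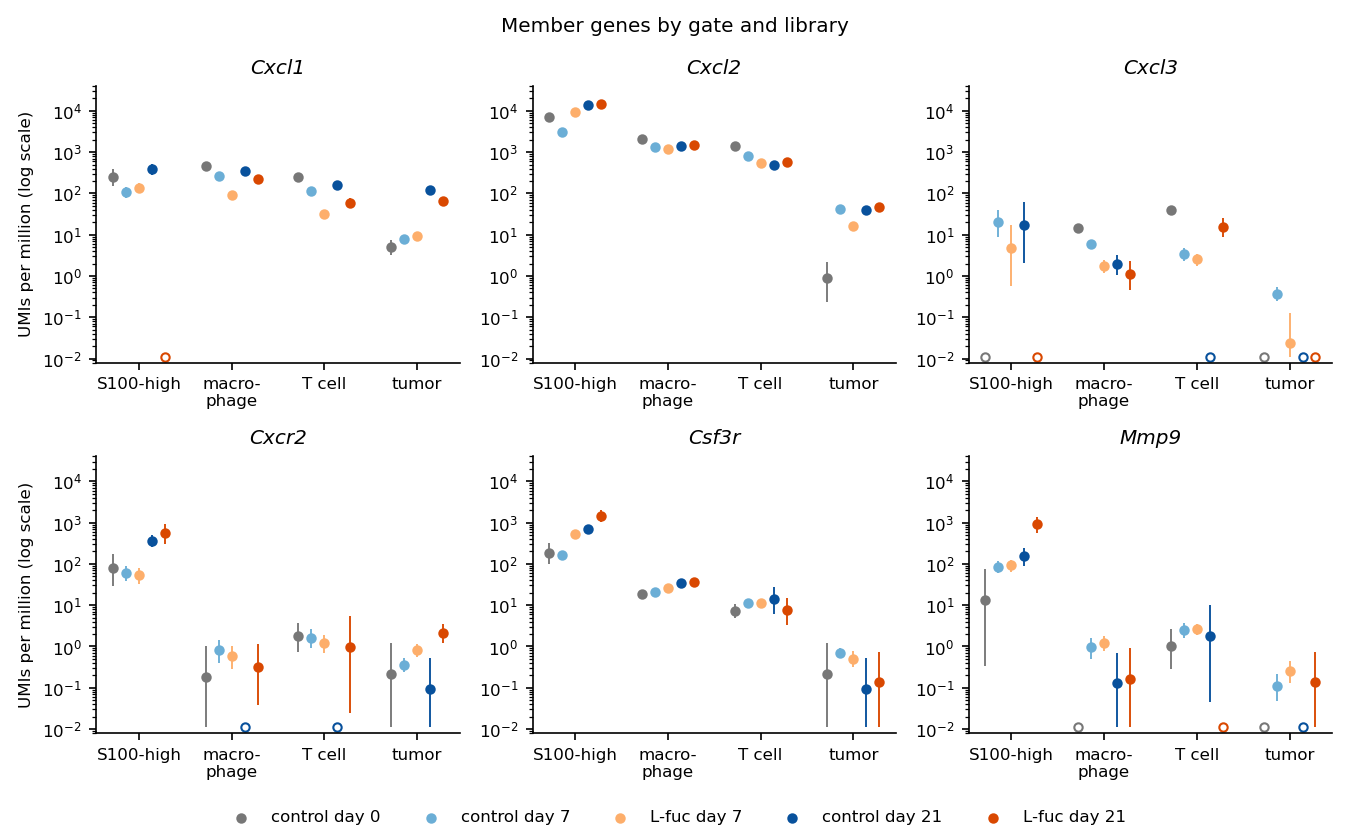
CPM (log scale) of 6 members in the 4 gates, 1 point per library, with exact 95% Poisson intervals; open circles on the lowest line mark libraries with no UMI. Cxcr2 and Mmp9 lie at 13.4 to 903 in the S100a8/S100a9-high gate and at 2.64 or lower in every other gate, while Cxcl2 lies at 1198 to 2043 in macrophages.

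Cxcr2, the receptor of the 3 ligands, was higher in the S100a8/S100a9-high gate than in the other 3 gates. Inside it stood at 80.2, 60.5, 53.2, 364 and 549 CPM in library order, from 6, 24, 22, 43 and 14 UMIs. In macrophages it stood at 0.187, 0.8, 0.584, 0 and 0.323, and the 0 at control day 21 allows up to 0.383. The size of the ratio in that library rests on the 1 UMI added to each sum. The ranges were far apart, with a mean log2 ratio of 8.47 ± 2.35 (SD, n = 5; higher in 5 of 5; exact permutation test, p = 0.0625, adjusted p = 0.0833). Cxcr2 was detected in 20.3% to 57.1% of S100a8/S100a9-high barcodes and in at most 0.506% of macrophages.

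The 2 members that follow, Csf3r and Mmp9, gave the same order. Csf3r stood at 187, 161, 524, 694 and 1452 CPM in the S100a8/S100a9-high gate and at 18.5, 20.9, 26.2, 35.1 and 36.1 in macrophages (mean log2 ratio 4.08 ± 0.925, SD, n = 5; higher in 5 of 5; exact permutation test, p = 0.0625, adjusted p = 0.0833). Macrophages were not empty of Csf3r, which was detected in 14% to 31.1% of them and in 0.201% to 0.525% of tumor-gate barcodes. Mmp9 stood at 13.4, 85.8, 91.8, 152 and 903 in the S100a8/S100a9-high gate and at 0, 0.946, 1.22, 0.128 and 0.161 in macrophages (mean log2 ratio 8.12 ± 2.25, SD, n = 5; exact permutation test, p = 0.0625, adjusted p = 0.0833). At control day 0 this was 1 Mmp9 UMI against 0, so that ratio rests on the 1 UMI added to each sum. For the sum of Cxcr2, Csf3r and Mmp9 the mean was 4.75 ± 1.03, between 4.35 and 4.99 without each library in turn. Without the 2 libraries with fewer than 10 S100a8/S100a9-high barcodes it was 4.49.

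The S100a8/S100a9-high barcodes numbered 6, 62, 79, 21 and 8 in library order, or 0.361%, 0.321%, 0.644%, 1.06% and 0.647% of kept barcodes. They held 90.5% to 98.1% of all S100a8 and S100a9 UMIs, which follows from the rule. Their median of S100 UMIs was 37, 29.5, 36, 51 and 53.5, and the highest barcode had 213, 1324, 2180, 517 and 1156. The ratio of S100a9 to S100a8 UMIs was 1.46, 1.21, 1.29, 1.57 and 1.41. At least 1 of Cxcr2, Csf3r and Mmp9 was seen in 66.7%, 82.3%, 89.9%, 100% and 100% of them. Just below the threshold, at 8 or 9 S100 UMIs, there were 0, 4, 11, 0 and 2 barcodes, of which 0, 3, 10, 0 and 2 held Csf3r. Just above it, at 10 to 12, there were 2, 8, 7, 2 and 1, of which 0, 3, 6, 2 and 1 held Csf3r.

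The gate was checked against 9 neutrophil genes, of which Csf3r, Cxcr2 and Mmp9 are members. All 9 were found in the later 4 libraries, summing to 1968, 5226, 4366 and 24055 CPM, and 7 were found at control day 0, where Ly6g and Cd177 were at 0 and the sum was 989. The same list summed to between 47.9 and 77.6 in macrophages. Retnlg, a resistin-like protein of mature neutrophils, stood at 53.4, 812, 2155, 922 and 17698, and Il1r2, the decoy receptor of interleukin 1, at 534, 499, 1372, 1929 and 1766. Ly6g, the usual surface marker of mouse neutrophils, was low throughout, with 0, 17, 81, 2 and 5 UMIs.

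Markers of other cells were also present in the gate. Barcodes in the S100a8/S100a9-high gate and no other numbered 3, 23, 52, 19 and 7. Those also in the T cell gate numbered 3, 24, 18, 0 and 0, and those also in the macrophage gate 0, 21, 16, 2 and 1. The 6 macrophage markers summed to 147, 7964, 3854, 6591 and 785 CPM in the gate. Red blood cell genes had 652 UMIs at control day 7 and 4489 at L-fuc day 7, and none in the other 3 libraries. The 3 mast cell markers were at or near 0, with 2 UMIs in all. Monocyte markers were present too, with Ly6c2 at 8.46 to 271 CPM over the libraries and Plac8 at 80.7 to 201. Chil3 ran from 0 to 4115 with a median of 17.7, while Ccr2 and Vcan reached at most 82.1 and 26.7. In the S100a8/S100a9-high barcodes of no other gate, Cxcl2 was higher still, at 22713, 6193, 15923, 16169 and 16431 CPM. Csf3r there stood at 1506, 552, 1010, 959 and 1558, Cxcr2 at 125, 160, 113, 529 and 661, and Mmp9 at 125, 142, 126, 209 and 1039. Leaving out mixed barcodes thus gave higher values of these members in every library. At control day 0, however, only 3 barcodes were left, in which Mmp9 and Cxcr2 rested on 1 UMI each. For these 2 genes the higher value in that library cannot be read.

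Of the granule genes, Camp, Ngp and Ltf were concentrated in a few day 7 barcodes. Retnlg was not, being found in 58.1% of S100a8/S100a9-high barcodes at control day 7 and 74.7% at L-fuc day 7. Camp, Ngp and Ltf, which neutrophil precursors load into secondary granules, had 0, 1098, 3672, 0 and 1 UMIs in the gate. At control day 7, 3 barcodes held 1096 of the 1098, and at L-fuc day 7, 3 held 3299 of the 3672. Barcodes of no other gate had 2 of the 1098 at control day 7, all of Ngp, whereas at L-fuc day 7 they had 488, 293 and 143 UMIs of Camp, Ngp and Ltf. At control day 7, 3 barcodes also held 609 of the 652 red blood cell UMIs, and at L-fuc day 7, 3 held 2402 of 4489. Mpo, Elane and Prtn3, made by earlier precursors, were at 0 in both day 7 libraries in this gate. Few barcodes also carried most S100 UMIs: the 5 richest held 97.1%, 63.0%, 63.0%, 64.5% and 96.5% of those in the gate.

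L-fuc was set against control at each time point, the comparison for which the libraries were made. At day 7, S100a8/S100a9-high barcodes were 0.644% of kept barcodes with L-fuc (79) and 0.321% with control (62), a ratio of 2.0 (95% exact interval 1.42 to 2.84). Without barcodes in more than 1 gate, its log2 value went from 1.00 to 1.83. At day 21 they were 0.647% (8) and 1.06% (21), a ratio of 0.611 (0.234 to 1.43), so that no difference was detectable with so few barcodes. The kept barcodes of the 2 arms differed in makeup at day 7, with 25.4% in the tumor gate with L-fuc and 47.3% with control, and 18.9% and 9.22% in the macrophage gate.

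Over all kept barcodes at day 7, 5 of the 8 members stood at least 2-fold higher with L-fuc and none at least 2-fold lower. The same fold was passed by 12.6% of 15986 genes with 30 or more UMIs in the 2 libraries together, of which 1732 were higher and 279 lower. The 5 were Cxcr2 (1.81 against 0.620 CPM, 153 against 72 UMIs), S100a8, S100a9, Csf3r (10.7 against 4.06) and Mmp9 (1.76 against 0.706). Their log2 ratios were 1.54, 1.29, 1.38, 1.40 and 1.32. Cxcl2 was higher by 0.79 (0.77 to 0.81), Cxcl1 was at -0.18 and Cxcl3 at -0.76. A gene that is high in 1 arm alone could pass the 30 UMIs through that arm.

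The receptor-side ratios at day 7 did not come from the S100a8/S100a9-high barcodes alone. Outside that gate, Cxcr2 had a log2 ratio of 1.91 (1.42 to 2.41), Csf3r 1.22 (1.04 to 1.40) and Mmp9 1.67 (1.17 to 2.19). Within it, L-fuc and control lay close for Cxcr2, at 53.2 and 60.5 CPM, and for Mmp9, at 91.8 and 85.8, with intervals of the log2 ratio of -1.09 to 0.71 and -0.61 to 0.81. Csf3r was 3.25-fold higher there with L-fuc (2.45 to 4.36), and Cxcl2 3.04-fold (2.85 to 3.24). In barcodes of no other gate, 52 with L-fuc and 23 with control, Csf3r stood closer, at 1010 and 552 CPM.

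At day 21 none of the 8 members passed 2-fold in either direction, against 4.97% of 13750 genes. Mmp9 came nearest, at 2.28 with L-fuc and 1.16 with control (log2 ratio 0.97, 0.19 to 1.78), followed by Cxcl1, at 119 and 231 (-0.95, -1.03 to -0.88). S100a8 and S100a9 stood at 0.44 and 0.29, and without the 5 barcodes richest in S100 UMIs in each library they stood at -2.57 and -2.26. Thus the direction of the S100 pair at day 21 turned when 5 barcodes per library were left out. Those 5 held 96.5% of the S100 UMIs of the gate with L-fuc (8 barcodes) and 64.5% with control (21). The step thus takes more from the L-fuc library by its makeup, and the turned direction cannot be read as a result. At day 7 the same step left S100a8 at 1.00.

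**Figure D4:**
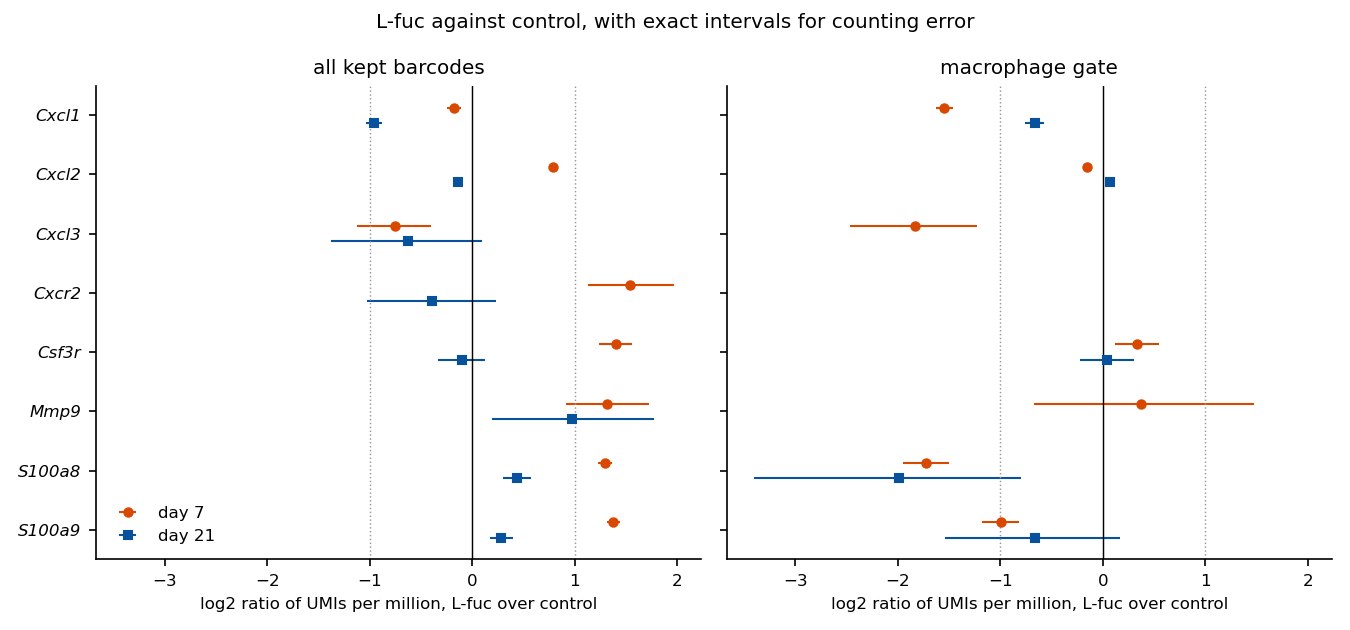
Log2 ratio of CPM, L-fuc over control, for the members at day 7 (circles) and day 21 (squares), over all kept barcodes on the left and the macrophage gate on the right, for members with 30 or more UMIs in the 2 libraries; whiskers are exact 95% intervals for counting error and dotted lines mark 2-fold. Over all kept barcodes, Cxcr2, S100a8, S100a9, Csf3r and Mmp9 lie beyond the right dotted line at day 7, and no member lies beyond either line at day 21.

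In macrophages at day 7, Cxcl1 was lower with L-fuc. The summed Cxcl2 was nearly level but was detected in a smaller share of barcodes, which were also shallower. Cxcl1 stood at 89.1 CPM with L-fuc and 260 with control, 2.92-fold lower (log2 ratio -1.55, -1.63 to -1.46). It was detected in 7.29% of 2319 and 18.2% of 1779 macrophages, and in 3.23% and 8.58% after every barcode had been thinned to 1000 UMIs. Cxcl2 stood at 1198 and 1333 (-0.15, -0.18 to -0.13), so that the ratio of Cxcl2 to Cxcl1 UMIs was 13.4 with L-fuc and 5.12 with control. Barcodes with 10 or more Cxcl2 UMIs were 11.3% of macrophages with L-fuc and 17.2% with control. Among macrophages without Cxcl1, Cxcl2 was detected in 23.4% and 33.6%. Such shares grow with depth, and the median UMIs per macrophage barcode were 4762 with L-fuc and 6231 with control. The part of depth in these Cxcl2 shares was not tested. The tenth of macrophages with most Cxcl2 held 93.7% and 80.9% of its UMIs, so the level sum rests on few barcodes. Cxcl3 had a ratio of -1.83, from 32 and 83 UMIs. S100a8, at 12.1 and 39.9, and S100a9, at 22.7 and 45.3, were also lower. Barcodes in both gates numbered 16 with L-fuc and 21 with control. In macrophages of no other gate the direction turned, with S100a8 at 3.07 and 2.19 CPM (35 and 18 UMIs) and S100a9 at 4.47 and 2.31 (51 and 19 UMIs).

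Of the 7 members with 30 UMIs in macrophages, 3 (Cxcl1, Cxcl3 and S100a8) were at least 2-fold lower at day 7, against 7.58% of 12904 genes past 2-fold in either direction. The S100a8 call was lost in macrophages of no other gate. At day 21, 1 of 5, S100a8 with 7 against 35 UMIs, was at least 2-fold lower, against 4.33% of 11003 genes. Cxcl1 was again the lower with L-fuc, at 218 against 345 CPM (-0.67, -0.76 to -0.57), but was detected in 12.8% against 10.6% of macrophages. Those macrophage barcodes were deeper with L-fuc, with median UMIs of 7077 against 3693, and the part of depth in the detection was not tested. Over the alternative settings the log2 ratio of Cxcl1 ran from -2.74 to -1.38 at day 7 and from -1.37 to -0.60 at day 21. The sum of the 3 ligands was at -0.31 at day 7, between the value of Cxcl2 (-0.15) and the lower one of Cxcl1.

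Tumor-gate barcodes carried little Cxcl1 until day 21. It stood at 5.02, 7.68, 9.19, 122 and 65.6 CPM in library order, and was detected in 3.33%, 3.70%, 3.37%, 15.9% and 15.1% of the barcodes. Thinned to 1000 UMIs the shares were 1.14%, 0.711%, 0.669%, 5.87% and 4.25%. The first 3 libraries and the last 2 did not overlap. From day 7 to day 21 Cxcl1 was 15.9-fold higher with control (log2 ratio 3.99, 3.84 to 4.13) and 7.14-fold higher with L-fuc (2.84, 2.64 to 3.03), while the median UMIs per barcode went from 7332 to 21791.5 and from 13530.5 to 22897.

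The 6 macrophage markers summed to 255, 709, 423, 418 and 398 CPM in the tumor gate, lower at day 21 than at day 7 in both arms. Most of each sum was Apoe, which went from 413 at day 7 to 376 at day 21 with control, but from 278 to 304 with L-fuc. C1qa went from 107 to 13.6 with control and from 51.2 to 32.2 with L-fuc. The part of these markers in the Cxcl1 values was not tested. In macrophages, Cxcl2 UMIs outnumbered those of Cxcl1 by 4.05 to 13.4 times. In tumor-gate barcodes of no other gate at day 21, Cxcl1 UMIs outnumbered those of Cxcl2, by 3.14 times with control and 1.53 times with L-fuc, where day 7 had ratios of 0.218 and 0.694. At control day 0 such barcodes already had a ratio of 5.75, though from only 23 Cxcl1 and 4 Cxcl2 UMIs. At day 21, 33.7% and 57.8% of the Cxcl1 UMIs of those barcodes lay in 5 barcodes.

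With control, 1 of the 5 members with 30 UMIs in the tumor gate, Cxcl1, was at least 2-fold higher at day 21 than at day 7, against 5.31% of 13529 genes. With L-fuc, 3 of 4 were, namely Cxcl1, Cxcl2 and Cxcr2, against 5.68% of 12713. Members also went the other way: with control S100a8, S100a9 and Csf3r had 125, 167 and 50 UMIs in the gate at day 7 and 1, 2 and 1 at day 21, and with L-fuc S100a9 had 49 and 1. Of all genes, 1105 were at least 2-fold lower with control and 428 with L-fuc. Tumor-gate Cxcl2 stood at 42.6 and 38.9 with control at day 7 and day 21 and at 16.3 and 46.0 with L-fuc. Cxcr2 at L-fuc day 21 rested on 16 UMIs in 9 of 325 barcodes, against 1 UMI in 498 barcodes at control day 21.

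**Figure D5:**
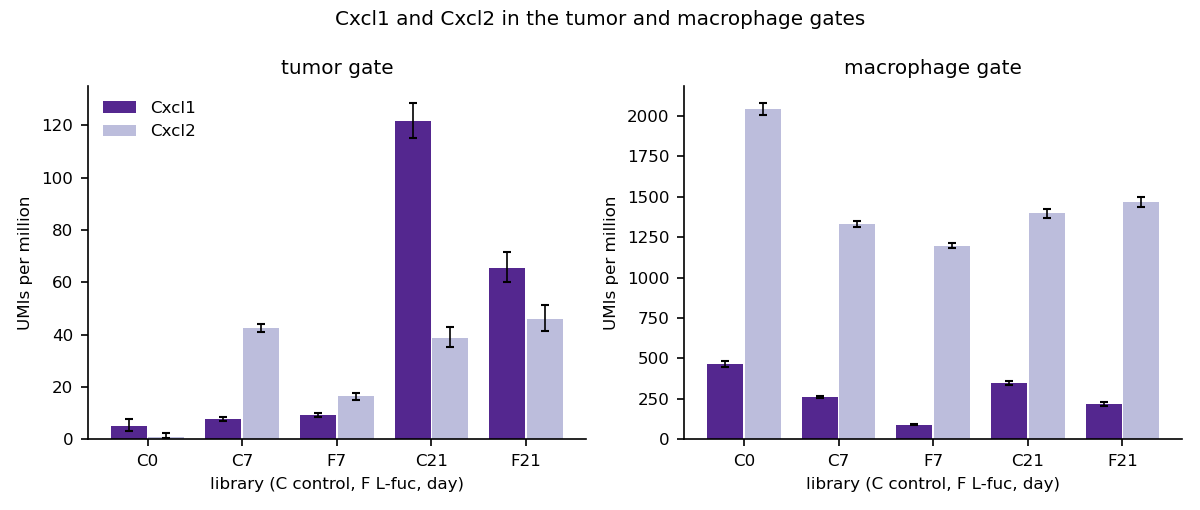
CPM of Cxcl1 (dark) and Cxcl2 (light) in the tumor gate (left) and the macrophage gate (right) of the 5 libraries, with exact 95% Poisson intervals; the vertical ranges differ. In the tumor gate Cxcl1 exceeds Cxcl2 at day 21, at 122 against 38.9 with control and 65.6 against 46.0 with L-fuc. It also does so at control day 0, at the low values of 5.02 against 0.872. In macrophages Cxcl2 exceeds Cxcl1 in every library.

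Cxcr2 also lay outside the S100a8/S100a9-high gate, in barcodes with mast cell genes. Whether these were also in the macrophage, T cell or tumor gate was not counted. At L-fuc day 7, barcodes with 2 or more UMIs of the mast cell genes Cpa3, Ms4a2 and Fcer1a, a group drawn up after the values had been seen, held 61 of the 153 Cxcr2 UMIs (39.9%), against 14.4% in the S100a8/S100a9-high gate. There were 175 such barcodes, of which 36 (20.6%) held Cxcr2, and none was S100a8/S100a9-high. They carried the basophil and mast cell genes Hdc at 1423 and Mcpt8 at 2147 CPM, against 382 and 2.42 in the S100a8/S100a9-high gate. Hdc is thus not particular to them. Both genes were also chosen after their values had been seen. At control day 7 there were 34 such barcodes, with no Cxcr2 UMI (0%, upper bound 10.3%). In the other libraries they numbered 2, 8 and 1, with 0, 9 and 2 Cxcr2 UMIs.

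Other genes of the pathway were read from lists that go with the members. At day 7 over all kept barcodes, all genes tested had a median of -0.09 on the log2 scale, L-fuc over control. Of the other CXCR2 ligands and growth factors, 3 of 3 tested stood at least 2-fold higher (median 2.53), where 12.6% of all genes passed 2-fold, 1732 of them higher: Cxcl5, Csf3, which encodes G-CSF, and Csf2, which encodes GM-CSF. Csf2 stood at 19.9 CPM with L-fuc and 3.44 with control, in the T cell gate at 94.2 and 21.8 and in macrophages at 34.4 and 8.0. The T cell gate, which can share barcodes with macrophages, held 1428 of 1689 and 217 of 399 Csf2 UMIs, and took 15.1% and 7.90% of kept barcodes. Csf3 rested on 28 and 19 UMIs and Cxcl5 on 77 and 7. Ppbp had fewer than 30 UMIs and Cxcl15 none.

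Of 6 inflammatory cytokines, Il6, Ccl3 and Ccl4 stood at least 2-fold higher at day 7 (median of the list 1.04), and Il1a, Il1b and Tnf did not. Of all genes, 12.6% passed 2-fold in either direction over all kept barcodes. In macrophages none of the 6 stood at least 2-fold higher (median 0.10), against 7.58% of 12904 genes past 2-fold in either direction. Over all kept barcodes, the neutrophil receptor genes Cxcr4, Il1r2, Cd177 and Ly6g stood at least 2-fold higher. Of 11 granule genes 10 did (median 1.99), where 3 barcodes held most of the Camp, Ngp and Ltf UMIs. Of 10 other S100 genes only S100a14 did (median 0.06), and of Ager, Tlr4 and Timp1 none did (median -0.11). These counts stand beside the same 12.6% of all genes.

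At day 21 fewer list genes were at least 2-fold apart, where 4.97% of 13750 genes were. The list medians were -0.98 for the 2 ligands and growth factors tested (Cxcl5 higher, Csf2 lower), -0.40 for cytokines, 0.15 for granule genes, -0.12 for other S100 genes and 0.43 for Tlr4 and Timp1, against -0.05 over all genes. Csf2 stood at 0.493 CPM with L-fuc and 19.4 with control. In the T cell gate, which held only 50 barcodes with L-fuc and 67 with control, Csf2 stood at 5.77 and 711. Among granule genes Retnlg alone was at least 2-fold higher.

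Inside the S100a8/S100a9-high gate, the cytokine Il1b stood at 2031, 1289, 2522, 8579 and 15187 CPM, and Il1b in macrophages stood at 2000, 969, 1031, 2116 and 1744. Cxcr1, the other receptor of this family, had no UMI in the S100a8/S100a9-high gate of any library, while Cxcr4, which retains neutrophils in the marrow, stood at 281, 103, 242, 144 and 471. Across the 20 groups of 4 gates in 5 libraries, the genes whose log2 level was most like that of Cxcl2 were Cd14 (Pearson r = 0.976), Ccrl2 (0.974), Slfn2 (0.972), Il1b (0.972) and Alox5ap (0.970), out of 13127 genes. Those most like Cxcr2 were H2-Q10 (0.978), G0s2 (0.974), Hp (0.973), Lrg1 (0.973) and Pi16 (0.971). The 4 gates of 1 library share its depth and processing, and gates share barcodes, so these values describe the groups and carry no test.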

How the data were processed

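Per the labels, CD45-sorted cells of pooled tumors were run on a 10x Genomics platform and processed with Cell Ranger 3.0 and Seurat 4.0, whereas the headers of the deposited matrices name Cell Ranger 7.1.0; the build was mm10. The files hold the authors' raw UMI counts per gene and barcode. The T cell receptor contigs deposited for the same 5 libraries were used only to mark barcodes.

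Barcodes with 200 or more genes and up to 10% mitochondrial UMIs were kept, sorted into the 4 gates by raw counts, and summed per gate and library as CPM (UMIs per 1000000). No clustering was done and no doublet caller was run. Barcodes in more than 1 gate were counted, and leaving them out was an alternative. The members and lists were chosen with earlier results of these data known. The named genes were the 8 members, the listed pathway genes and the 5 genes most like Cxcl2 and Cxcr2 by Pearson r of log2(CPM + 10), with 200 or more UMIs. Others were named after their values had been seen.

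Poisson, Clopper-Pearson and conditional binomial 95% intervals were exact. They cover counting error only, and UMIs of 1 barcode are not independent, so they are too narrow. Floors used 3 counts, and thinning used 1000 UMIs. Gates were compared over the 5 libraries by an exact two-sided sign-flip permutation test of log2 ratios with 1 UMI added, adjusted by Benjamini-Hochberg over 8. Barcodes can sit in both gates compared. A 2-fold difference was counted for genes with 30 or more UMIs, and list medians had 1 UMI added. Scripts were tested on simulated data. Some genes of the lists, and the counts of the neutrophil receptor list, are not reported here. The scripts ran under Python 3.11.15 with scipy 1.17.1, numpy 2.4.6, matplotlib 3.10.9 and pandas 2.3.3. Promoters were RefSeq (GRCm38.p6), 7 of 8 members matched, and gene spans GENCODE (GRCm38).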

Additional observations from a re-analysis of the deposited data

Results flagged for a closer look

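Log2 ratios of L-fuc over control for 4 member values lay in opposite directions at day 7 and day 21, with counting intervals that leave out 0. The differences between days were not tested, since each condition is 1 library. Tumor-gate Cxcl1 stood at 0.26 at day 7 and -0.89 at day 21. Cxcl2 over all kept barcodes stood at 0.79 and -0.13, Cxcl2 in macrophages at -0.15 and 0.070, and Cxcl2 in the tumor gate at -1.38 and 0.24.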

How the results depend on the processing

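All values here are log2 ratios of L-fuc over control unless said otherwise. Of 100 recomputed values of the main results, 81 were counted as the same, 18 as moved and 1 as reversed. The 81 include all 17 means of the ligands, macrophage over S100a8/S100a9-high, which ran from -4.01 to -1.51. They also include all 17 of the receptor-side sum, S100a8/S100a9-high over macrophage, from 4.35 to 5.98. For these gate comparisons the count shows only that the direction of the mean was kept, not its size. Of 126 others, 92 kept size and direction, 29 moved and 5 reversed. The causes were not tested. No paired analysis was possible because every library pools several mice and the labels tie no mouse to more than 1 condition.

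The S100a8/S100a9-high share at day 7 went from 1.00 to 1.83 without barcodes in more than 1 gate and to 1.80 after thinning. The 3 ligands in macrophages at day 7 went from -0.31 to -0.12 without barcodes in more than 1 gate, -0.70 after thinning, -0.22 without barcodes that hold a T cell receptor contig and -0.35 as a mean over barcodes. At day 21 they went to -0.00397 with a filter on complexity, -0.15 with a C1q minimum of 20, -0.17 after thinning and 0.63 as a mean over barcodes, a reversal. Members past 2-fold at day 21 went from 0 to 1 with a minimum of 500 genes, 2 with the complexity filter, 1 after thinning, 1 without receptor barcodes, 2 by share of thinned barcodes and 2 without the 5 barcodes richest in S100 UMIs.

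Tumor-gate Cxcl1, day 21 over day 7, went to 3.83 with control and 3.58 with L-fuc after thinning, and to 4.14 with control at a Sox10 minimum of 2. Over all kept barcodes, Cxcl1 at day 7 reversed to 0.019 without receptor barcodes. At day 21, by share of thinned barcodes, Cxcl2 reversed to 0.51 and S100a8 to -0.80. Without the 5 richest barcodes, a step that takes most S100 UMIs from the L-fuc library, S100a8 reversed to -2.57 and S100a9 to -2.26. Without each library in turn, macrophage over S100a8/S100a9-high for the ligands ran from -2.64 to -2.11 and the receptor-side sum from 4.35 to 4.99 (exact p = 0.125, the smallest that 4 libraries allow). With 6 and 8 S100a8/S100a9-high barcodes at control day 0 and L-fuc day 21, values of that gate are the least precise.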
